A study of Mus musculus with 4 samples.

Results

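The genes described here encode the platelet-derived growth factors (PDGFs) and their receptors in 2 mouse fibroblast lines. They were chosen by name: the ligands Pdgfa, Pdgfb, Pdgfc and Pdgfd and the receptors Pdgfra and Pdgfrb, which together are represented by 14 of the 45037 probe sets that are not controls on the Affymetrix mouse genome array. They are 6 of the 18193 genes that the array's annotation names singly. A probe set is a group of short oligonucleotides that reads 1 stretch of a transcript. L929, derived from mouse connective tissue, and NIH3T3, derived from mouse embryos, were each profiled unstimulated on 2 arrays, 4 in all, from total RNA, with no treatment in either group. The study's title sets L929 as a line sensitive to necrosis against NIH3T3 as a line sensitive to apoptosis. Each of these is a single established line, so a difference belongs to the lines and cannot be told apart from how they die. The labels do not say that the arrays of a line came from separate cultures, so the p-values reflect only how far these samples differ, and that spread may be technical.

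PDGFs are secreted dimers that drive the growth and migration of fibroblasts and of the mural cells around blood vessels, and their receptors are tyrosine kinases that dimerise when a ligand binds. PDGF-A acts through the alpha receptor and PDGF-B through both receptors, whereas PDGF-C and PDGF-D are released in a latent form whose CUB domain must be cut off by a protease before they act, PDGF-C mainly on the alpha receptor and PDGF-D mainly on the beta receptor. 3T3 fibroblasts were among the cells in which the growth response to PDGF was worked out.

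L929 carried far less Pdgfc and less Pdgfra transcript than NIH3T3, and more Pdgfrb and, by a small margin, more Pdgfa. Pdgfb was dim and Pdgfd was at or near background in both lines. The members therefore moved in 2 directions: the alpha receptor and PDGF-C were lower in L929, and the beta receptor and PDGF-A were higher. Of the 14 probe sets, 9 were bright enough to be tested, and of these 4 were called higher and 5 lower in L929. Over all 26517 probe sets tested, 14.0% were called higher and 15.6% lower, so that a call by itself was common in this comparison. Calls needed 2 things, a limma p under 0.05 after Benjamini-Hochberg adjustment and a fold above 1.5, the thresholds in the series' design text. It was tested if its mean log2 signal over the 4 arrays exceeded the log2 of a level of 17.3, which marks the lowest 40% of scaled signals and is not a measured detection limit.

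Sequences upstream of annotated transcript starts are described for Pdgfc and Pdgfra, which were lower in L929, and for Pdgfa, which was slightly higher. Windows for 4 of the 6 members were used from RefSeq's promoter table for GRCm38.p6. No window was found for Pdgfb. Pdgfrb was left out when the windows were selected, so its absence here does not show that the table lacked it. The 250 bases before the start are shown for Pdgfc (chr3:81036166-81036415, plus strand), Pdgfra (chr5:75152001-75152250, plus strand) and 1 of 2 windows of Pdgfa (chr5:138994945-138995194, minus strand). Capitals mark the CpG dinucleotides, and each line reads 5′ to 3′ on the gene's strand.
Pdgfc: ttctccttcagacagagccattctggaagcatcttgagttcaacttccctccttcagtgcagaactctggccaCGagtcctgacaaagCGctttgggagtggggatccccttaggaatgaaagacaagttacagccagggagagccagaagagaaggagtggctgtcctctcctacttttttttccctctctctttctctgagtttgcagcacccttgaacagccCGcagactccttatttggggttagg
Pdgfra: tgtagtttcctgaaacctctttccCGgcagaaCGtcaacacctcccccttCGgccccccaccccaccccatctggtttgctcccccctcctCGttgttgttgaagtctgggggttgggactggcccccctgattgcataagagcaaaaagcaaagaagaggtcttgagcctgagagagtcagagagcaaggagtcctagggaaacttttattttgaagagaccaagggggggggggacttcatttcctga
Pdgfa: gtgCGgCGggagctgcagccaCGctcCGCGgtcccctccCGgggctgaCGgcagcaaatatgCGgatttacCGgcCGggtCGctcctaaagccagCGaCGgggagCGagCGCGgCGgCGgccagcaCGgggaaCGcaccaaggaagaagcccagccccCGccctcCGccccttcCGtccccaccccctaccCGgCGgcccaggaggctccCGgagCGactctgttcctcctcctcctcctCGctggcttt
The Pdgfc window held 3 CpGs and the Pdgfra window 4, against a median of 6 over 32851 windows of this length. The Pdgfa window held 28 and its other window 19. The window of Pdgfd, whose difference was not measurable, held 3, at a GC content of 53.6%. No Pdgfrb window was described, and a link between CpG content and direction was not tested. A GC content of 50.8% was found for Pdgfc, 54.4% for Pdgfra and 72.4% for the Pdgfa window shown, with a median of 52.4% over all windows. The GC box GGGCGG, searched on both strands, was found at 2 places in the Pdgfa window and in 32.7% of all windows, and these letters are in neither the Pdgfc nor the Pdgfra window. The letters CCAAT (33.8% of all windows), TATAAA (12.4%) and TGANTCA (6.75%), also searched on both strands, are in none of the 3 windows shown. RefSeq annotates further starts upstream of the windows of Pdgfra and Pdgfa, and which start these lines use was not measured, so the letters are a description only.

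**Figure D1:**
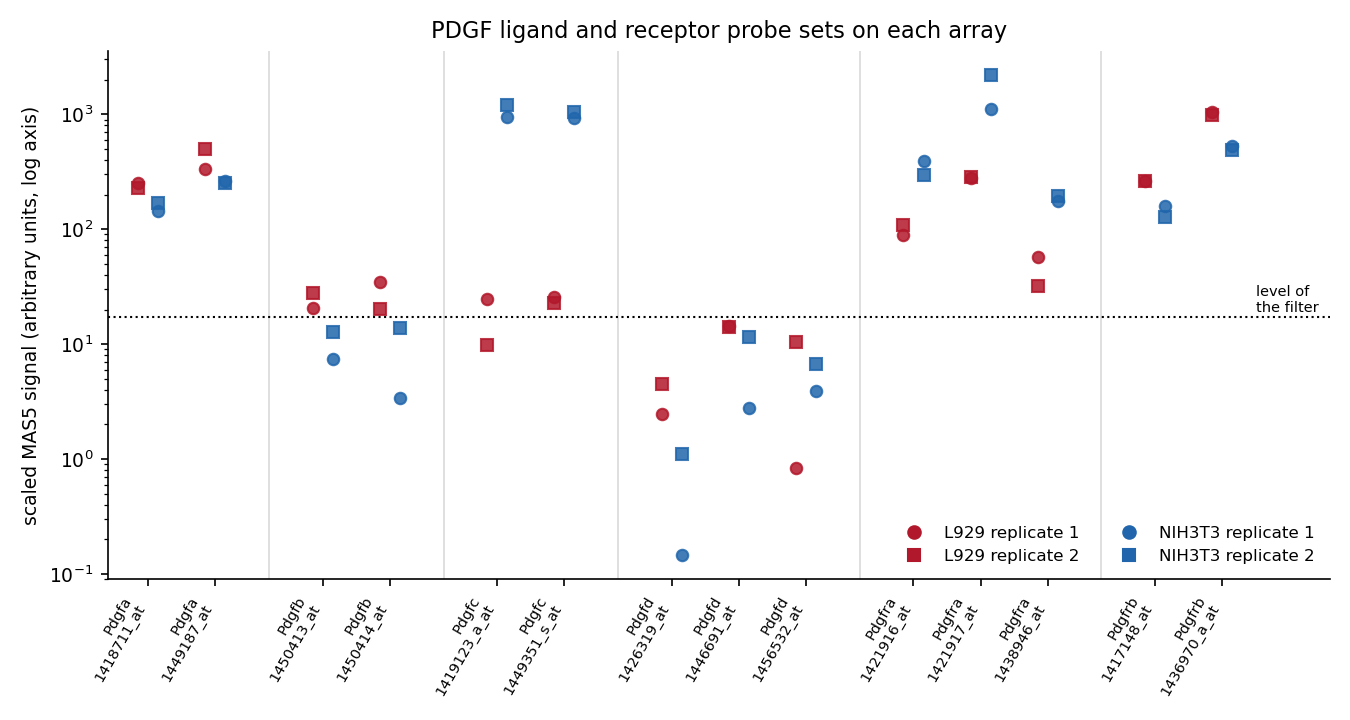
Scaled MAS5 signal (arbitrary units, log axis) of the 14 PDGF ligand and receptor probe sets on each of the 4 arrays, with L929 in red and NIH3T3 in blue, circles for replicate 1 and squares for replicate 2, and a dotted line at the level of 17.3. The 2 Pdgfc probe sets read 937 to 1201 in NIH3T3 and 9.85 to 25.8 in L929, and all Pdgfd points lie below the line.

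Among the ligands, Pdgfc differed most. On probe set 1449351_s_at its scaled signals were 25.8 and 22.6 in L929 and, in NIH3T3, 937 and 1044. The lines did not overlap, and L929 lay just above the level of 17.3. The log2 difference of -4.95 (SE 0.14, 95% interval -5.28 to -4.63, limma adjusted p = 5.7e-08) corresponds to 31.0-fold less in L929. The other Pdgfc probe set, 1419123_a_at, read 24.8 and 9.85 in L929 and 954 and 1201 in NIH3T3. Only 1 of the 2 L929 arrays lay above the level there, and the log2 difference was -5.48 (SE 0.26, adjusted p = 1.1e-06). Both probe sets were designed on the same RefSeq record, so they are not independent readings of the gene. By Affymetrix naming, the ending _a_at marks probes that match several transcripts of 1 gene, and _s_at marks probes that may also match transcripts of other genes. In RNA from whole cultures, fewer cells with a transcript and less of it per cell cannot be told apart.

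Pdgfa, whose product binds the alpha receptor, was slightly higher in L929. Probe set 1418711_at read 253 and 228 in L929 against 143 and 169 in NIH3T3, a log2 difference of 0.60 (SE 0.14, 95% interval 0.28 to 0.93, adjusted p = 0.0094). Probe set 1449187_at read 334 and 504 against 264 and 253, a log2 difference of 0.65 (SE 0.18, 95% interval 0.24 to 1.06, adjusted p = 0.0196). The lines did not overlap on either probe set after scaling, but the folds of 1.52 and 1.57 barely pass the threshold of 1.5, and both probe sets come from the same clone record. In the signals as deposited, the lines do overlap: 1418711_at read 236 and 201 in L929 and 127 and 232 in NIH3T3. The call of 1418711_at was lost without L929 replicate 1 (log2 difference 0.53) or NIH3T3 replicate 1 (0.49), and that of 1449187_at without L929 replicate 2 (0.36) or NIH3T3 replicate 2 (0.62, adjusted p = 0.0626).

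Pdgfb, the ligand of both receptors and the cellular counterpart of the sis oncogene, was dim. It read 20.5 and 27.8 in L929 and 7.37 and 12.6 in NIH3T3 on probe set 1450413_at, and 34.5 and 20.2 against 3.43 and 13.8 on 1450414_at. Both L929 arrays lay above the level and both NIH3T3 arrays below it on each probe set, so that the difference is bounded only as at least 1.26-fold and at least 1.37-fold, the L929 mean against the level. Neither probe set was bright enough over the 4 arrays to be tested. When no filter was applied, the log2 differences of 0.84 and 1.13 had limma adjusted p-values of 0.197 and 0.151, with 95% intervals of -0.07 to 1.75 and 0.03 to 2.23.

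Pdgfd, the latent ligand of the beta receptor, lay below the level on all 4 arrays with each of its 3 probe sets. Its signals ranged from 0.832 to 14.4 in L929 and from 0.146 to 11.7 in NIH3T3. The brightest of the 3, 1446691_at, read 14.4 and 14.2 in L929 and 2.81 and 11.7 in NIH3T3. None was tested, no fold is given, and a difference in Pdgfd was not measurable here.

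**Figure D2:**
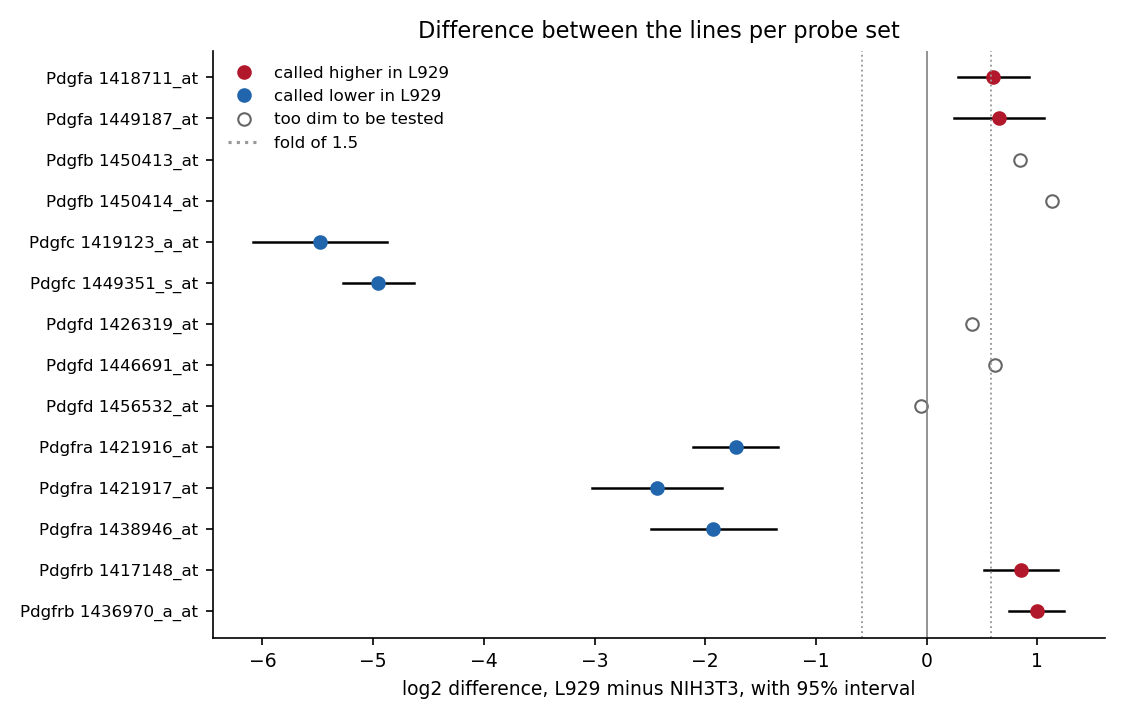
Log2 difference between L929 and NIH3T3 for each member probe set, positive where L929 is higher. Filled points with bars are tested probe sets with their 95% interval, open points were too dim to be tested, and dotted lines mark a 1.5-fold difference. The 2 Pdgfc and 3 Pdgfra probe sets lie to the left of the lower dotted line with their whole intervals, and the intervals of both Pdgfa probe sets and of the Pdgfrb probe set 1417148_at reach below the upper one.

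Of the receptors, Pdgfra was lower in L929 on all 3 of its probe sets. Probe set 1421917_at read 280 and 287 in L929 and 1116 and 2207 in NIH3T3, a log2 difference of -2.44 (SE 0.26, 95% interval -3.02 to -1.85, adjusted p = 1.1e-04), or 5.41-fold. The L929 arrays were close together and the NIH3T3 arrays far apart, with NIH3T3 replicate 2 the brighter. Without that array the log2 difference was -1.95, and without NIH3T3 replicate 1 it was -2.93. Probe set 1421916_at, designed on the same clone record, read 88.5 and 107.8 against 389 and 299 (log2 difference -1.72, SE 0.17, adjusted p = 7.1e-05). There NIH3T3 replicate 2 was the dimmer array after scaling, so the order of the scaled NIH3T3 arrays was not the same on both probe sets. As deposited, NIH3T3 replicate 2 was the brighter on 1421916_at too, at 412 against 345. Probe set 1438946_at, from another clone, read 57.7 and 31.9 against 178 and 196 (log2 difference -1.93, SE 0.25, adjusted p = 3.6e-04). The lines did not overlap on any of the 3, and the folds ran from 3.30 to 5.41.

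Pdgfrb went the other way. Probe set 1436970_a_at read 1056 and 989 in L929 and 534 and 487 in NIH3T3, a log2 difference of 0.99 (SE 0.11, 95% interval 0.74 to 1.24, adjusted p = 1.4e-04), or 1.99-fold. Probe set 1417148_at read 264 and 262 against 159 and 127 (log2 difference 0.85, SE 0.15, 95% interval 0.52 to 1.19, adjusted p = 0.0018), or 1.81-fold. The lines stayed apart in the signals as deposited too, where 1436970_a_at read 983 and 871 in L929 and 473 and 670 in NIH3T3. All 9 tested member probe sets had lines that did not overlap, as did 67.5% of all tested probe sets.

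The arrays were not equally bright as deposited, which bears on every signed difference. The 2% trimmed mean of the signals was 135 to 142 on 3 arrays and 210 on NIH3T3 replicate 2, and this mean was made equal on all 4 before the comparison. The correlation of replicates over the tested probe sets was then 0.982 for L929 and 0.980 for NIH3T3, a description of these arrays only. Without scaling, the median log2 difference of all genes was -0.25 in place of 0.01, and of the genes called, 30.1% were higher in L929 in place of 49.2%. In that setting the 4 higher calls among the members were lost, with log2 differences of 0.58 and 0.71 for Pdgfrb and 0.33 and 0.37 for Pdgfa, while the 5 lower calls of Pdgfc and Pdgfra remained.

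The ratio of 2 signals on the same array does not move with any scaling of that array, so it shows an unequal change without that choice. Its value is not a ratio of transcript amounts, because probe sets differ in brightness. Over the 6 ways to set a Pdgfra probe set against a Pdgfrb one, the log2 ratio was lower on both L929 arrays than on both NIH3T3 arrays in 6, with a difference between the lines' means of -2.69 to -3.47. With 1421916_at over 1417148_at, it was -1.58 and -1.28 in L929 and 1.29 and 1.24 in NIH3T3. Over the 4 ways to set Pdgfc against Pdgfa, the log2 ratio was likewise lower in L929 in 4, with 1449351_s_at over 1418711_at at -3.29 and -3.34 against 2.71 and 2.63. These sets of genes were chosen after their values were seen, and no test was made on them.

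**Figure D3:**
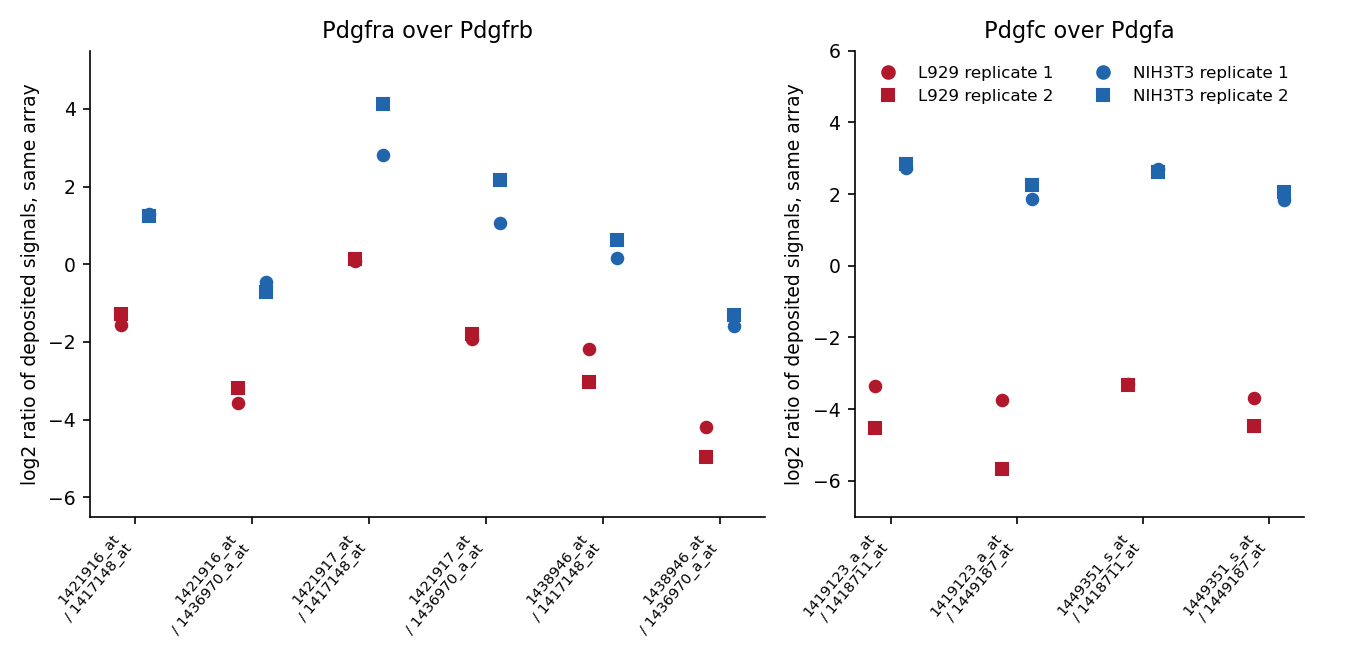
Log2 ratio of the deposited signals of 2 probe sets on the same array, for Pdgfra over Pdgfrb (left, 6 combinations) and Pdgfc over Pdgfa (right, 4 combinations), with L929 in red, NIH3T3 in blue, circles for replicate 1 and squares for replicate 2. In every combination shown both L929 points lie below both NIH3T3 points, with the nearest points of the lines 2.36 apart or more on the left and 5.52 or more on the right.

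Transcripts of Plat, Nrp1 and Thbs1, whose products act on or bind PDGF ligands, were lower in L929. Of 14 genes for proteins that activate, bind or present PDGF ligands with a probe set of their own, 10 were tested at their brightest tested probe set, and 0 were called higher and 3 lower. Over all 12334 genes tested in this way, 16.3% were called higher and 16.9% lower. The median log2 difference was -0.03 for this list and 0.01 for all genes. Plat, tissue plasminogen activator, a protease that cuts latent PDGF-C, was 6.07-fold lower at 49.1 ± 0.679 in L929 and 339 ± 34.9 in NIH3T3 (SD, n = 2; limma adjusted p = 3.7e-06). Nrp1, neuropilin-1, a co-receptor for several growth factors, lay below the level on both L929 arrays (10.3 ± 6.28) and read 510 ± 110 in NIH3T3. It was thus at least 20.3-fold lower in L929 (limma adjusted p = 2.5e-06) on its brightest probe set, while its 4 tested probe sets ran from -4.85 to -1.67 on the log2 scale. Thbs1, thrombospondin-1, a matrix glycoprotein that can bind PDGF, was 41.4-fold lower at 19.5 ± 2.91 against 1128 ± 67.3, with another probe set at a log2 difference of -3.99. With median scaling or quantile normalization, and without NIH3T3 replicate 1 or NIH3T3 replicate 2, 1 gene of this list was also called higher.

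Of 29 tested genes that act just inside the cell from the receptors, for adaptors, kinases, phosphatases and STAT factors, 5 were called higher and 4 lower, shares near the 16.3% and 16.9% over all genes. Their median log2 difference was -0.26. Stat5a, a transcription factor activated by receptor kinases, was 6.73-fold higher in L929 at 244 ± 11.2 against 29.4 ± 1.30 (adjusted p = 6.2e-06), and its paralogue Stat5b stood at a log2 difference of 0.61. The small GTPase gene Nras was 2.01-fold higher, and Shb, an adaptor of tyrosine kinase receptors, and Akt2, a kinase downstream of PI3-kinase, were 1.53-fold and 1.52-fold higher. Lower in L929 were the Src-family kinases Fyn (log2 difference -1.22) and Yes1 (-0.92), the transcription factor Stat3 (-1.18) and the phospholipase Plcg1 (-0.77). For Stat3, Plcg1 and Yes1 another tested probe set of the gene stood at -0.01, -0.03 and -0.25. Without scaling, 1 gene of this list was called higher, with an offset of 32 before log2, 2 were, and without a mean-variance trend, 3 were. Leaving out 1 array ended the calls of Shb (log2 difference 0.46 without NIH3T3 replicate 1), Stat5b (0.51 without L929 replicate 1, 0.49 without NIH3T3 replicate 1), Akt2 (0.55 without L929 replicate 2) and Yes1 (-0.59 without NIH3T3 replicate 2).

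In a list of genes grouped under attenuation of receptor signalling, Grb10 had the widest difference, and its action on PDGF receptors was not examined. Of 16 tested, 1 was called higher and 4 lower, beside 16.3% and 16.9% over all genes. The median log2 difference of the list was -0.36. Grb10, a receptor adaptor, read 2605 ± 43.7 in NIH3T3 and 18.4 ± 7.31 in L929, with 1 of 2 L929 arrays past the level (log2 difference -6.65, limma adjusted p = 4.6e-08), and its 3 tested probe sets ran from -6.65 to -2.71. The transmembrane regulators Lrig1 and Lrig3 were 2.41-fold and 2.05-fold lower, although another Lrig1 probe set stood at 0.11, and the Ras GTPase-activating protein gene Rasa1, whose product binds the beta receptor, was 1.73-fold lower. Ptpn12, a tyrosine phosphatase, was 2.17-fold higher at 2287 ± 121 against 1050 ± 45.3. The higher count was 0 without scaling and 2 without L929 replicate 2.

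Genes that PDGF is known to induce in fibroblasts were called in equal numbers in both directions. Of 28 tested, 10 were higher and 10 lower, with a median log2 difference of 0.10. Both shares were above those over all genes tested, 16.3% higher and 16.9% lower. The list was chosen with earlier results of these data known, so these shares are a description only. Ccn2, a matricellular factor, was lower, with 2716 ± 457 in NIH3T3 and 6.04 ± 4.82, below the level, in L929, or at least 107-fold less. Other lower genes were the inducible cyclooxygenase Ptgs2 (29.0-fold), the nuclear receptor Nr4a1 (27.7-fold), the hyaluronan synthase Has2 (at least 12.2-fold), and the transcription factors Egr3 (5.42-fold, with another probe set at a log2 difference of -0.87) and Klf4 (4.60-fold). Nr4a1 in L929 lay just above the level, at 24.0 ± 3.54, so the size of its fold is uncertain. Ccn1, counted as lower but outside the genes named by rule, stood at a log2 difference of -0.68 on its brightest probe set. Its 4 tested probe sets ran from -0.91 to 2.63, so its direction is uncertain. Higher in L929 were the chemokines Cxcl1 (3.83-fold), Ccl7 (2.78-fold) and Ccl2 (2.21-fold), the sphingosine kinase Sphk1 (3.20-fold), the cyclin Ccnd1 (2.46-fold, 4638 ± 71.2 against 1878 ± 51.7, adjusted p = 9.9e-05) and the early gene Ier2 (2.06-fold). No PDGF was added to these cells, so the list describes unstimulated levels. Without scaling 3 of its genes were called higher, and Ccl7, Ccl2 and Ier2 lost their calls with log2 differences of 1.19, 0.86 and 0.76 (adjusted p = 0.0554, 0.0781 and 0.218).

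Relatives of the PDGFs and their receptors gave 2 higher and 2 lower calls among 11 tested, with a median log2 difference of -0.06. These shares were near the 16.3% and 16.9% over all genes. Csf1, ligand of a receptor kinase of the same class, was 3.92-fold higher in L929, and Kitl, ligand of another, was 4.91-fold lower at 236 ± 33.5 against 1184 ± 20.2 (adjusted p = 2.0e-06). The 4 tested probe sets of each ran from 1.01 to 2.14 for Csf1 and from -2.30 to -0.79 for Kitl on the log2 scale. Vegfd, a VEGF relative with a similar fold, was 1.97-fold lower. Pgf, placental growth factor, read 46.8 ± 31.8 in L929 and lay below the level on both NIH3T3 arrays, at least 1.98-fold higher (adjusted p = 0.0108), and without L929 replicate 1 or L929 replicate 2, with an offset of 1 and with the stricter level it was too dim to be tested. Over all genes, 16.3% were called higher and 16.9% lower. Together the 5 lists held 93 tested genes, of which 18 were called higher and 23 lower, with a median log2 difference of -0.17. Without scaling 6 were higher and 20 lower.

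**Figure D4:**
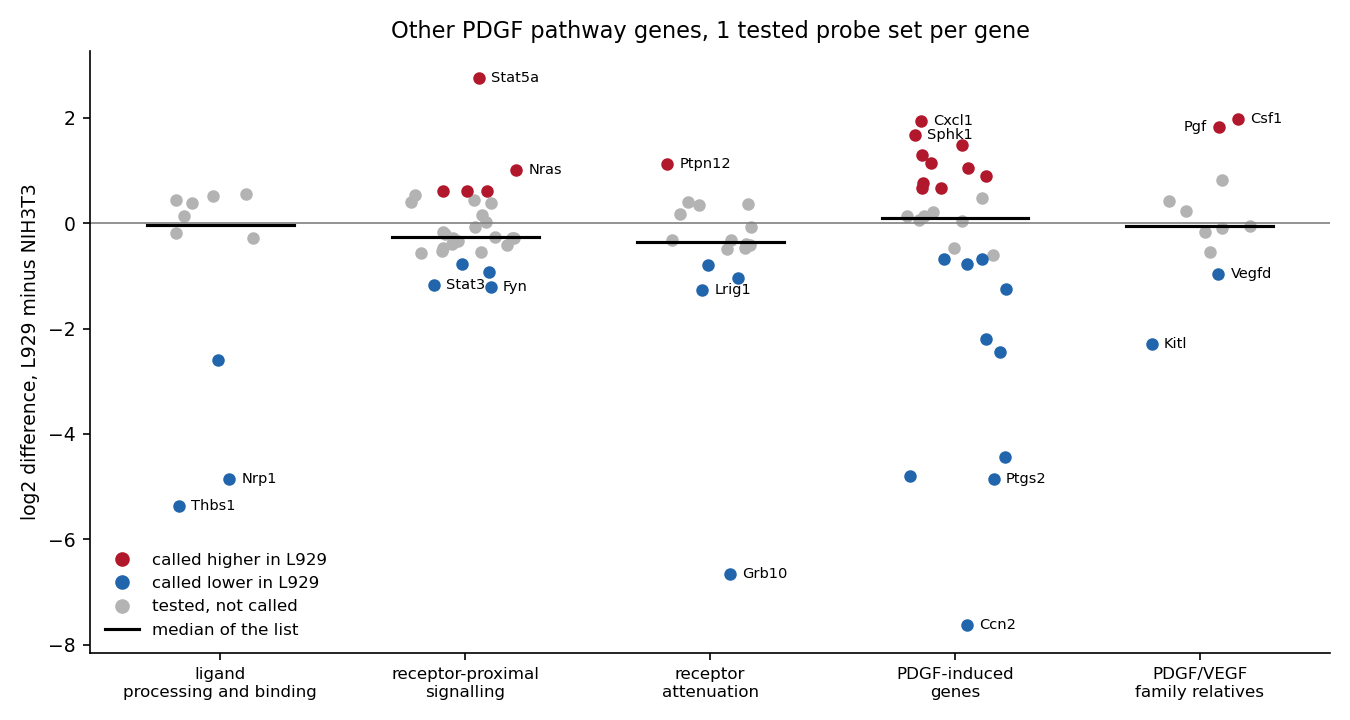
Log2 difference between L929 and NIH3T3 of the tested genes of 5 PDGF pathway lists, 1 probe set per gene, with genes called higher in red, called lower in blue and not called in grey; black lines are list medians, and horizontal position within a list has no meaning. The medians lie between -0.36 and 0.10, and Grb10 stands at -6.65. The points of Ccn2, Has2, Nrp1 and Pgf, which lay below the level in 1 line, are fitted values whose size is known only as a bound.

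Marker genes set these lines among cell types that carry PDGF receptors. All 10 fibroblast markers were tested, and Vim, Col1a2, Col3a1, S100a4 and Col1a1 were not called, whereas Thy1, Dcn, Lum, Prrx1 and Fn1 were lower in L929, with log2 differences from -6.44 to -1.26. Col1a1 stood at -0.56 on its brightest probe set and at 0.94 on another. Dcn lay above the level on 1 of 2 L929 arrays, as did Lum. Pdgfra, itself widely used as a fibroblast marker, was lower with them, and the part of that shared difference in the result for Pdgfra was not tested. The summed signal of the 10 fibroblast markers was 36258 and 37791 in L929 and 47535 and 35128 in NIH3T3. Vim alone read 11407 and 12132 in L929 and S100a4 11341 and 11466, so the sum says little about the markers that were lower. Among 6 markers of mural cells, whose recruitment depends on the beta receptor, Cspg4 and Des were higher in L929 (another Des probe set stood at 0.09), Acta2 was lower, Rgs5 and Notch3 were not called and Myh11 lay below the level on all 4 arrays. The 5 tested mural markers summed to 1107 and 1149 in L929 and 3846 and 3449 in NIH3T3, where Acta2 alone read 3649 and 3232. Cspg4 and Des ran the other way, Cspg4 at 871 ± 45.7 in L929 against 126 ± 16.2 and Des at 146 ± 39.8 against 29.1 ± 28.5.

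Markers of other cell types were mixed. Pecam1, Tek and Tie1 of endothelium, Ptprc and Itgam of macrophages and Krt18 of epithelium lay below the level on all 4 arrays. Csf1r, Adgre1 and Cd68 of macrophages and Epcam and Krt8 of epithelium lay above it on all 4. On its brightest probe set Csf1r read 83.1 ± 14.4 in L929 and 86.8 ± 8.79 in NIH3T3 (SD, n = 2). The 3 tested Csf1r probe sets ran from -0.80 to -0.06 on the log2 scale. Epcam read 58.9 ± 2.18 in L929 and 70.8 ± 14.4 in NIH3T3. Neither Csf1r, at its brightest probe set, nor Epcam was called. The tested endothelial markers, 2 of 5, summed to 30.5 to 56.7 in L929 and 35.4 to 52.9 in NIH3T3. The tested macrophage markers, 3 of 5, summed to 138 to 148 in L929 and 176 to 210 in NIH3T3, with Cd68 lower in L929. The tested epithelial markers, 2 of 5, summed to 97.5 to 98.3 in L929 and 109 to 113 in NIH3T3, with 0 called.

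Genes whose values over the 4 arrays were most like those of a member were found by the distance between log2 signals, each centred on its own mean, over 11697 other genes. For Pdgfc the nearest were Ptn, Mpdz and Ptx3 to 1419123_a_at (distances 0.25 to 0.26) and Stard4, Pxdn and Nr4a1 to 1449351_s_at (0.12 to 0.19). For Pdgfra they were Dlx1, Runx1 and Plscr3 to 1421916_at, Glis1, Ccdc122 and Ttc30a1 to 1421917_at, and Flrt3, Gbp2 and Srgap1 to 1438946_at, at distances of 0.05 to 0.34. For Pdgfrb they were Ech1, Tasp1 and Micos10 to 1417148_at and Wdr34, Taf12 and Polr3b to 1436970_a_at, at distances of 0.00655 to 0.0328. For Pdgfa they were Ginm1, Gna13 and Fgfr1op2 to 1418711_at and Lockd, Ncf4 and Itfg2 to 1449187_at, at distances of 0.0147 to 0.0925. The 27 genes named for the 9 probe sets were 27 different ones, so that probe sets of the same member shared none, and 4 arrays leave many genes with a like pattern.

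Directions of the tested members held under every processing alternative that was run. The lower calls held throughout: Pdgfc stayed between -6.00 and -4.18 and Pdgfra between -2.93 and -1.52 on the log2 scale. Pdgfrb was called in 13 of 14 alternatives on 1417148_at and in 14 of 15 on 1436970_a_at, the exception being no scaling. Pdgfa was called in 10 of 14 on 1418711_at and in 10 of 15 on 1449187_at.

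**Figure D5:**
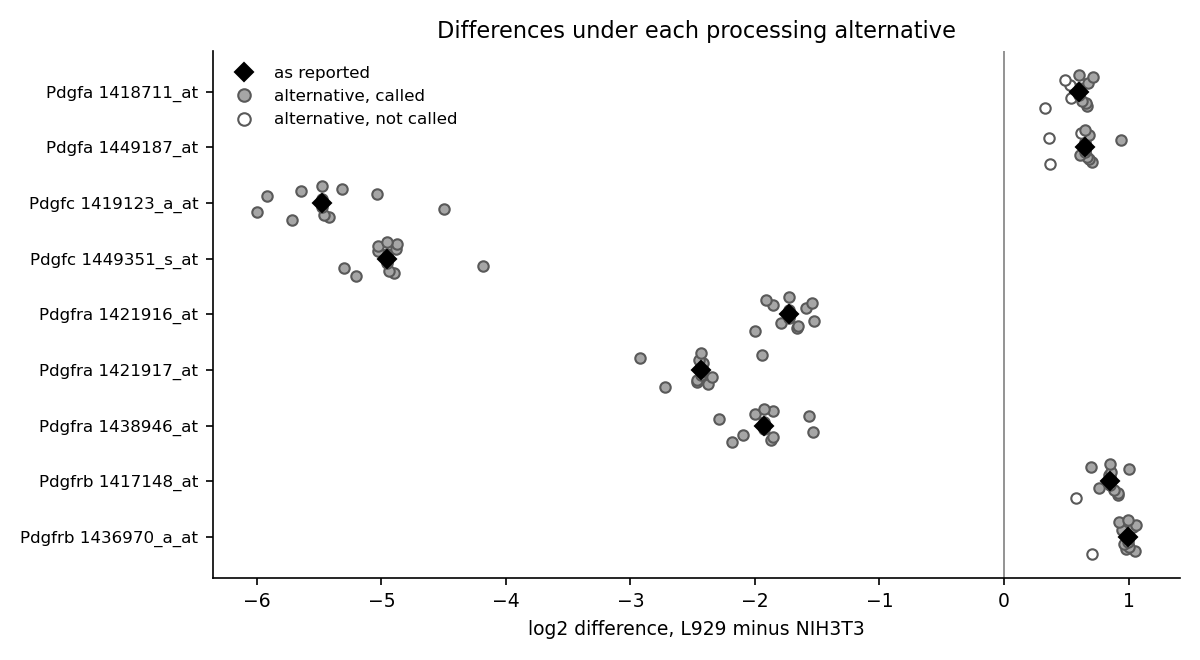
Log2 difference between L929 and NIH3T3 of the 9 tested member probe sets as reported (black diamonds) and under each processing alternative (circles, filled grey where the probe set kept its call and open where it did not); vertical spread within a row only separates the points. The Pdgfc and Pdgfra circles are all filled, Pdgfrb has 1 open circle per probe set, and Pdgfa has 4 on 1418711_at and 5 on 1449187_at.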

How the data were processed

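RNA from 2 samples each of unstimulated L929 and NIH3T3 was hybridised to Affymetrix arrays. The deposited table holds 1 linear intensity per probe set and array, a MAS5 signal per the submitters' processing notes; its version, scaling target and detection calls are not stated in what was used here. Samples were grouped by their titles. Probe sets were named from the platform annotation (34945 with a unique symbol, 932 with several and 9160 with none); 34741 identifiers matched the RefSeq gene table, which changed 0 symbols. Members' probe sets were those with a unique member symbol. The 6 members and the gene lists were chosen with earlier results of these data known.

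Arrays were scaled to a common 2% trimmed mean, 8.01 (the 25th percentile) was added, and log2 was taken, so folds of dim genes are understated. Probe sets with a mean log2 signal above that of the level were tested, a filter that ignores the lines. L929 was compared with NIH3T3 over all genes with lmFit and eBayes of limma 3.58.1 (R 4.3.3), letting the variance trend with the mean signal, and Benjamini-Hochberg adjustment over 26517 probe sets. For lists, 1 tested probe set per gene was used, the brightest. Where both arrays of a line lay below the level, the fold is the other line's mean against the level, on log2 means. The text names every member, up to 6 called genes per direction and list, and the markers; other genes are said to be outside this. The procedure was tested on simulated data. Alternatives were other scalings, offsets, filters, variance and adjustment choices, leaving out each array, and a replicate block. The number of arrays limits the precision.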

Additional observations from a re-analysis of the deposited data

How the results depend on the processing

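The members' 5 lower calls were found under each alternative run except adjustment over 1 probe set per gene, where 2 were lower and 2 higher because only that probe set of each gene enters. Without scaling 0 member probe sets and 6 pathway genes were called higher, in place of 4 and 18. With the replicate block, 4 member probe sets were higher and 5 lower, and 18 pathway genes higher and 23 lower; no count moved by over 1.5 times. The numbers are not said to pair samples, and the deviations of replicate 1 in the lines correlated with r = 0.007. When each array was left out in turn, 3 member probe sets were higher and 5 lower; the lone array of a line is then assumed to vary like the other line's. Of the values of tested members and other named genes, 0 reversed, and 11 and 25 lost their call. Signal near or below the level limits Pdgfd in both lines, Pdgfb in NIH3T3 and the size of the Pdgfc fold, since Pdgfc in L929 lay just above the level in 3 of 4 readings and below it in 1.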

Other observations

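Pdgfrl, a gene named for its likeness to the PDGF receptors and outside the members, was looked up after the other values were seen. Its probe set 1428896_at read 3.73 and 0.964 in L929 and 51.3 and 43.2 in NIH3T3. It lay below the level on both L929 arrays and above it on both NIH3T3 arrays, at least 2.18-fold lower in L929, and was too dim over the 4 arrays to be tested. Plau, the urokinase that can cut latent PDGF-D, belongs to the list of genes that activate, bind or present PDGF ligands, and was too dim to be tested. It was singled out here after its values were seen. Plau read 5.99 ± 6.42 in L929 and 13.1 ± 5.75 in NIH3T3 (SD, n = 2), below the level on all 4 arrays.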
